A study of Homo sapiens with 6 samples.

Results

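The alpha-arrestin genes ARRDC1, ARRDC2, ARRDC3 and ARRDC4, and MLXIP, which encodes the glucose-sensing factor MondoA, were followed in HCT116 cells with and without overexpression of RBM47. Rows were taken by gene symbol, and 5 of the 6 genes named for the set were found among the 28491 genes of the count table and among the 28244 genes of the FPKM table. TXNIP, the remaining gene, was not analysed here. The set was proposed with ARRDC3 already known to be among the genes that rose with RBM47, so the members were selected on the same contrast that is described below. Their values are a description, and where a fit over all genes called a member, the call is counted without a p-value and supports nothing.

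Alpha-arrestins are adaptor proteins with an arrestin fold, and most carry short proline-rich motifs in the tail that bind the WW domains of NEDD4-family ubiquitin ligases. Through them, receptors, transporters and other membrane proteins are ubiquitinated and moved through endosomes. MondoA, together with its partner MLX, enters the nucleus when phosphorylated glucose accumulates, binds carbohydrate response elements built from E-box motifs, and drives TXNIP and ARRDC4, whose products hold back glucose uptake.

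HCT116 is a human colorectal carcinoma line, and polyadenylated RNA was sequenced 48 h after transfection, by a lipid reagent, with a control plasmid (NC, 3 libraries) or an RBM47 plasmid (RBM47-OE, 3 libraries). RBM47 is an RNA-binding protein, and the study asked which transcripts respond to it. The labels name the construct pcDNA3.1-3xFlag-RBM47 and DMEM, whereas the methods name a pIRES-hrGFP-1a vector and McCoy's 5A medium. Both groups went through transfection, the share of cells that took up plasmid is not given in the sources used here, and nothing says that the libraries of a group came from separate cultures. P-values therefore measure the spread between these libraries, which may be technical.

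Between 26792409 and 35477983 reads were counted on genes per library. RBM47 itself was at 1.91 to 2.33 FPKM (fragments per kilobase of gene, scaled to the fragments mapped in the library) in NC and at 127.0 to 131.3 in RBM47-OE, with plasmid transcripts included. Of 10 markers of a colorectal epithelial line, 7 were at 1 FPKM or more in every library, EPCAM, KRT8 and KRT19 among them, while VIL1, GPA33 and LGALS4 were near 0. All listed leukocyte and endothelial markers that were measured stayed under 1 FPKM, the leukocyte list summing to 0.48 to 0.59 in NC and 0.28 to 0.35 in RBM47-OE and the endothelial list to 0.15 to 0.20 and 0.11 to 0.18, and the fibroblast list summed to 1.34 to 1.78, nearly all of it COL1A1. The RBM47-OE libraries differed from NC along the GC content of the exons, so the log2 fold changes of the members, and those of other genes where they changed most, are given also from a fit that removed this trend from each library (the GC offset).

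The transcripts of the members differ in sequence. Sequence was not used to choose them, but this does not make it independent of the choice. ARRDC3 was known to rise, and rises were more common among genes of low GC content, as described below. ARRDC3 and ARRDC4 have AU-rich messages, with an exonic GC content of 38.8% and 43.4%, whereas MLXIP, ARRDC2 and ARRDC1 are at 55.8%, 62.0% and 63.2%. Of the tested genes, 9.51% had a lower GC content than ARRDC3 and 93.4% a lower one than ARRDC1. The 3' UTR of ARRDC3 holds the pentamer ATTTA, the core of AU-rich elements, 8 times in 2769 bases, and that of ARRDC4 7 times in 2646 bases. MLXIP holds it 3 times in 5532 bases, and ARRDC1 (222 bases) and ARRDC2 (1136 bases) hold none. The median over 16365 coding genes was 2, and 21.2% of them hold 7 or more, so a count of this size is not rare. The median 3' UTR of these genes had 1165 bases. Per kilobase of 3' UTR the pentamer was at 2.89 in ARRDC3, 2.65 in ARRDC4 and 0.542 in MLXIP, beside a median of 1.51. The windows of 30 bases with the most copies are shown for the members that have any, from GENCODE 44 and GRCh38, in the sense of the transcript and with ATTTA in capitals. They lie at chr5:91370775-91370804 (minus strand) for ARRDC3, chr15:97971965-97971994 (plus strand) for ARRDC4 and chr12:122143858-122143887 (plus strand) for MLXIP, and in ARRDC3 2 copies overlap by 1 base.
ARRDC3 3' UTR: aattgtggATTTATTTAcaaacatcaaatg
ARRDC4 3' UTR: catatcttATTTAcctaggagcatgtaaga
MLXIP 3' UTR: cttcagatATTTAaggctgttaggttgtgt

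The start regions differ as well. The 250 bases before the start site are shown for ARRDC4, the classical MondoA target among the measured members, and for both annotated starts of ARRDC3, whose level differed most evenly between the groups. They are from RefSeq on GRCh38.p14, in the sense of the gene, and all 5 genes matched a window. Capitals mark the E-box CACGTG, the CCAAT box, which NFY binds and which reads ATTGG where it lies on the other strand, and the forkhead core GTAAACA. The forkhead core is printed from the other strand in ARRDC3. Each motif was searched on both strands in windows from 250 bases before to 50 after the start. The ARRDC4 window is chr15:97960453-97960702 (plus strand), and the ARRDC3 windows are chr5:91383318-91383567 for the start at 91383317 and chr5:91380098-91380347 for the start at 91380097 (minus strand).
ARRDC4 start: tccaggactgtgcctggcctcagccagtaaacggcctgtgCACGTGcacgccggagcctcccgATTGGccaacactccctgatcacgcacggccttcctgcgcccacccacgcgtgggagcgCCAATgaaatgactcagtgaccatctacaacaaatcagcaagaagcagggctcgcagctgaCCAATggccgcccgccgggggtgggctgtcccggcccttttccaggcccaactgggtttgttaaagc
ARRDC3 start at 91383317: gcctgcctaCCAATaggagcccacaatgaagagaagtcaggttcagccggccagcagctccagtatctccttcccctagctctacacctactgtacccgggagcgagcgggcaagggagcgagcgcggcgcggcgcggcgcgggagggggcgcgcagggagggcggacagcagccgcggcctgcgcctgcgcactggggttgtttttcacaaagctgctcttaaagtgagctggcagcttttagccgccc
ARRDC3 start at 91380097: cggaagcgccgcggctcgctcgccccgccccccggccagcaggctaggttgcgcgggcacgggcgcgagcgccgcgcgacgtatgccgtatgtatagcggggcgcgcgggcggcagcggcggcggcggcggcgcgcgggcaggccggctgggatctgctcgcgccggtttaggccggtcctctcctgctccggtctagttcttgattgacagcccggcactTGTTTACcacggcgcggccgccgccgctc
ARRDC4 was the only member with an E-box, which began at position -210, and it had 3 CCAAT boxes at -187, -128 and -67. ARRDC3 had no E-box in either window. It had a CCAAT box at -241 of one start and a forkhead core at -29 of the other. ARRDC1, ARRDC2 and MLXIP had 1 CCAAT box each, at -80, -93 (at the start at 18008170) and -76. Of 35116 human start windows of this size, 7.26% held the E-box, 34.6% a CCAAT box and 3.42% the forkhead core. These matches describe the letters only and say nothing about binding in these cells.

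With edgeR's quasi-likelihood test and a Benjamini-Hochberg adjusted p below 0.05 as the call, ARRDC3 and ARRDC4 were higher and ARRDC2 and MLXIP lower in RBM47-OE, and ARRDC1 was not called. That is 2 members higher and 2 lower of 5, beside 19.1% of all 16260 tested genes higher and 16.9% lower. At the thresholds of the study (p below 0.01 before adjustment, fold change over 1.5), ARRDC3 alone was called, beside 1.51% of genes higher and 0.873% lower. These thresholds called 245 genes higher and 142 lower with TMM factors, 479 and 79 with scaling by library totals alone, and 77 and 92 with the GC offset. Because the set was chosen on this contrast, nothing is read from these counts. The calls depended on the fit. Of 18 alternatives, ARRDC3 kept its call after adjustment in 18, MLXIP in 13, ARRDC4 in 11 and ARRDC2 in 3. ARRDC4 was not called by DESeq2 (SE 0.33 in place of 0.16), by limma on log2 FPKM, with the GC offset or without RBM47-OE replicate 2. It was called when the replicate block was added to the GC offset. Neither ARRDC2 nor MLXIP was called with the GC offset, with or without the block. At the thresholds of the study ARRDC3 was called in 15 of the 18, and not with the GC offset, with or without the replicate block, nor without NC replicate 2. In 3 members (ARRDC2, ARRDC3 and MLXIP) the groups did not overlap, in log2 CPM as in FPKM, and over all tested genes this held in log2 CPM for 46.5%.

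**Figure D1:**
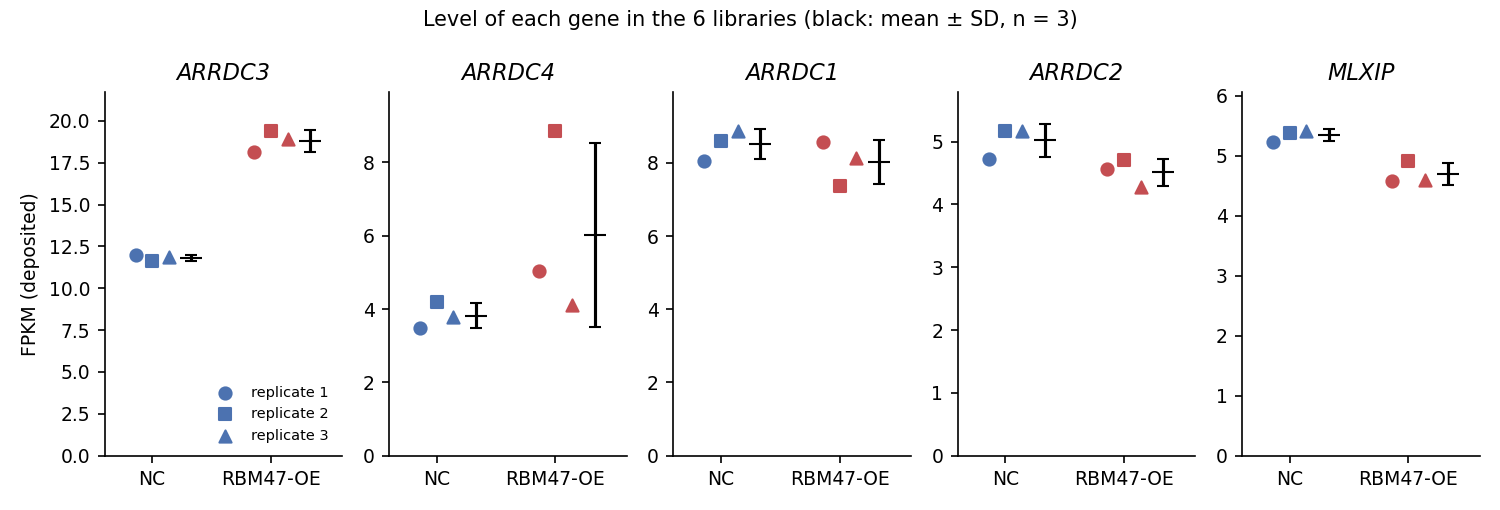
FPKM of each gene (y axis, from 0, scaled for each panel) in the NC and RBM47-OE libraries, with the replicate given by the symbol and the mean ± SD (n = 3) in black. ARRDC3 lies between 18.1 and 19.4 in RBM47-OE against 11.6 to 12.0 in NC, and the ARRDC4 difference rests mostly on RBM47-OE replicate 2.

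ARRDC3 (ENSG00000113369) (chromosome 5, minus strand, 91368631 to 91383317, all positions on GRCh38) encodes an adaptor known for the endosomal sorting of membrane proteins, the integrin ITGB4 among them. NC replicates 1, 2 and 3 held 11.96, 11.63 and 11.86 FPKM of it, where the RBM47-OE libraries held 18.1, 19.4 and 18.9 in the same order. The groups were separate, every RBM47-OE library was above every NC library, and within a group the highest library exceeded the lowest by a factor of 1.03 (NC) and 1.07 (RBM47-OE). The means were 11.8 ± 0.169 and 18.8 ± 0.640 (SD, n = 3). ARRDC3 stood above 81.2% of the 16368 protein-coding genes in NC and above 87.8% in RBM47-OE. As the RNA is from bulk cells, a difference in every cell and a difference in a share of the cells cannot be told apart. The counts behind these levels were 1828 to 2320 in NC and 3028 to 3368 in RBM47-OE.

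The log2 fold change of ARRDC3 was 0.60 (SE 0.069), a fold of 1.51, which is at the fold threshold of the study and just past it. Among the 245 genes that were higher at those thresholds, and so all past that fold, ARRDC3 ranked at 214 by size. It was thus among the smaller rises of those 245, but 96.9% of all tested genes had a lower log2 fold change. The ratio of the FPKM means, which carry no TMM factor, was 1.59, and scaling by library totals alone gave a log2 fold change of 0.66. Leaving out any 1 library gave values between 0.58 and 0.62. With the GC offset it was 0.29 (SE 0.059), a fold of 1.22, still higher in RBM47-OE but smaller.

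Genes of low GC content differed in the same direction as ARRDC3. In the lowest of 10 GC bins, which holds ARRDC3 and 1624 genes in all, the median log2 fold change was 0.38 and edgeR's quasi-likelihood test called 65.0% of the genes higher after adjustment. ARRDC3, at 38.8%, lies near the upper end of this bin, which spans 23.5% to 38.9% with a median of 37.4%. The next bin had a median log2 fold change of 0.31. ARRDC3 lay 0.22 above the median of its own bin, and 92.0% of the genes in that bin had a lower log2 fold change. Its log2 CPM exceeded the NC mean by 0.58, 0.61 and 0.61 in replicates 1, 2 and 3 of RBM47-OE, where the bin median was 0.20, 0.43 and 0.47. ARRDC3 was thus nearly the same in the 3 libraries, while the bin median was not, and its distance from that median was 0.38, 0.18 and 0.14. Each NC library differed from the mean of the other 2 by no more than 0.041 in ARRDC3. What part of the difference in ARRDC3 goes with GC content because of the libraries and what part because of the cells cannot be told apart in this design.

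**Figure D2:**
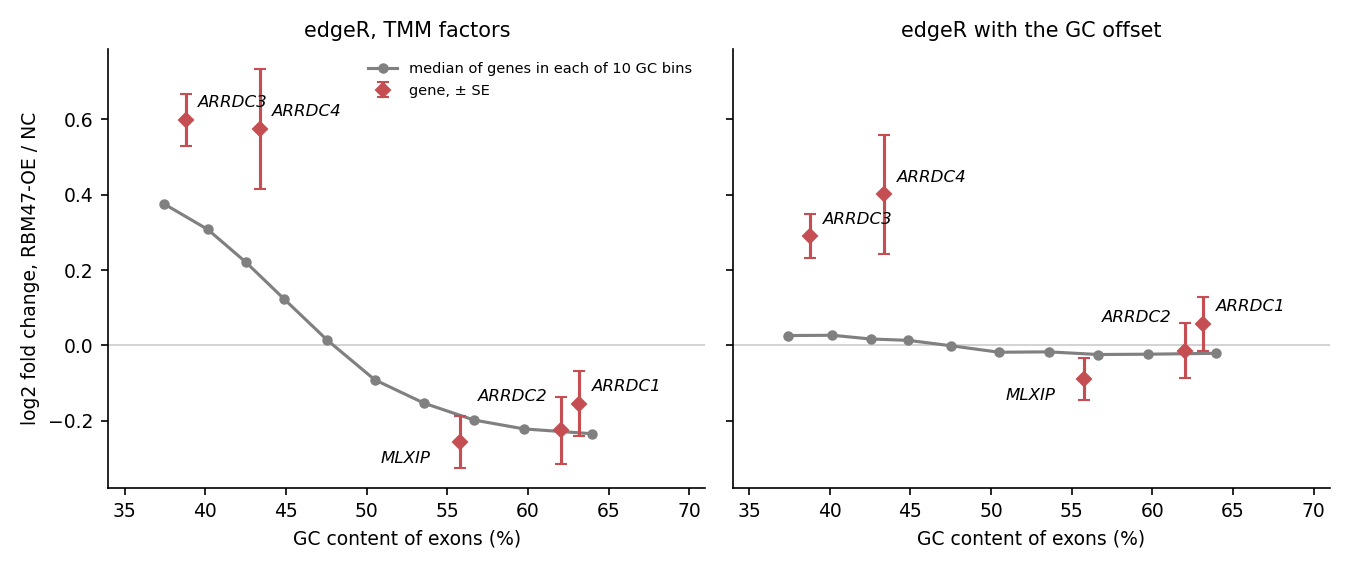
Log2 fold change of RBM47-OE over NC (y axis) against the GC content of the exons (x axis, percent), from edgeR with TMM factors (left) and with the GC offset (right). Diamonds are the 5 genes with their SE and the grey line is the median of the genes in each of 10 GC bins. ARRDC3 and ARRDC4 lie above the line in both panels, while MLXIP, ARRDC2 and ARRDC1 lie on or close to it.

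ARRDC4 (ENSG00000140450, chromosome 15, plus strand, 97960703 to 97973833) encodes the alpha-arrestin closest to TXNIP in its control by MondoA. NC replicates 1, 2 and 3 held it at 3.49, 4.18 and 3.79 FPKM, whereas RBM47-OE replicates gave 5.05, 8.86 and 4.12. RBM47-OE replicate 2 was the highest library by far, replicate 1 was above all NC libraries, and replicate 3 was within the NC range, so the groups overlapped. The highest RBM47-OE library exceeded the lowest by a factor of 2.15, against 1.20 in NC. The means were 3.82 ± 0.346 and 6.01 ± 2.51 (SD, n = 3).

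In CPM (reads scaled to a common depth), ARRDC4 was at 38.8 in RBM47-OE replicate 2, with an exact Poisson interval (95%, counting error only) of 36.7 to 41.0, at 23.2 (21.5 to 24.9) in replicate 1 and at 18.6 (17.0 to 20.2) in replicate 3. The NC libraries were at 16.5, 19.7 and 17.8. The log2 fold change was 0.57 (SE 0.16), and 0.21 without RBM47-OE replicate 2 against 0.78 without replicate 3. The fold of 1.49 fell just short of the threshold of the study. With the GC offset the log2 fold change was 0.40 (SE 0.16). Against the NC mean the 3 RBM47-OE libraries were at 0.37, 1.11 and 0.05 in log2 CPM, where the median of the 1623 genes in the same GC bin was 0.12, 0.26 and 0.28. Among the RBM47-OE libraries, replicate 3 had the least ARRDC4 and, by a small margin over replicate 2, the highest bin median. ARRDC4, at 43.4%, lies near the upper end of its bin (41.4% to 43.7%). The next bin had a median log2 fold change of 0.12. The cause of the spread in ARRDC4 was not tested.

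**Figure D3:**
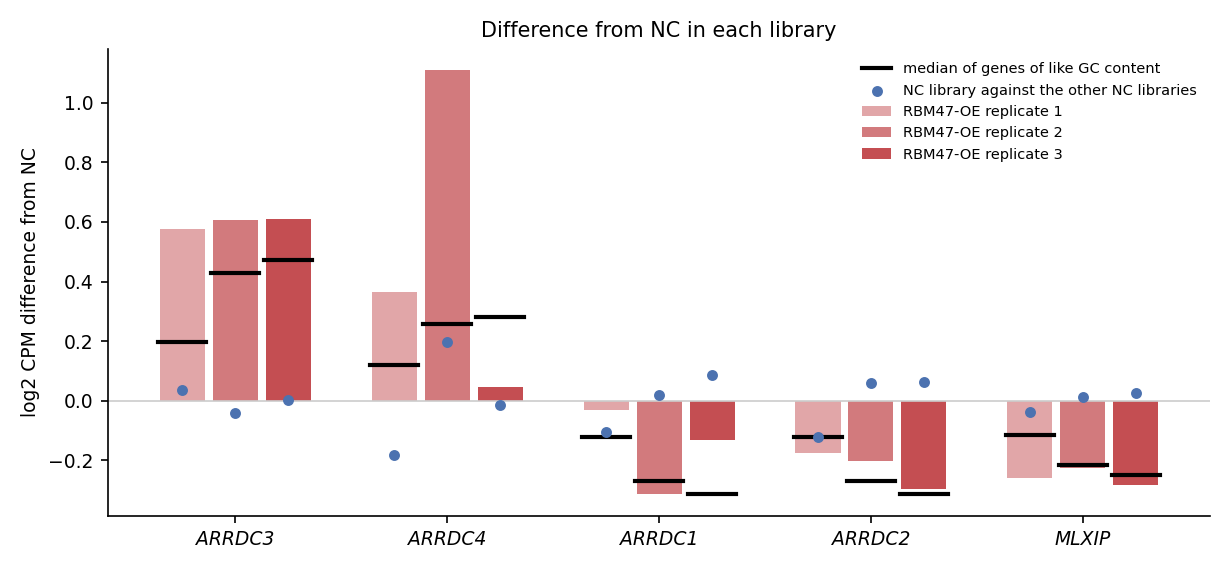
Difference in log2 CPM from the NC mean for each gene in each RBM47-OE library (bars), with the median of all genes in the same GC bin as a black line, and each NC library against the mean of the other NC libraries as a blue point. The ARRDC3 bars are nearly equal at 0.58, 0.61 and 0.61, and the ARRDC4 bars are at 0.37, 1.11 and 0.05.

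ARRDC1 (ENSG00000197070, chromosome 9, plus strand, 137605685 to 137615360) encodes the alpha-arrestin that recruits TSG101 to the plasma membrane for the budding of microvesicles. Its NC libraries were at 8.06, 8.60 and 8.87 FPKM, where the RBM47-OE ones were at 8.56, 7.37 and 8.14. The groups overlapped, and RBM47-OE replicate 2 was the lowest library. The log2 fold change was -0.15 (SE 0.087) and turned to 0.06 (SE 0.071) with the GC offset, so no direction was held. The NC and RBM47-OE means were 8.51 ± 0.412 and 8.02 ± 0.604 (SD, n = 3).

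ARRDC2 (ENSG00000105643, chromosome 19, plus strand, 18001132 to 18014102) is a less studied member of the family. NC gave 4.72, 5.17 and 5.17 FPKM, where RBM47-OE gave 4.56, 4.70 and 4.28, the means being 5.02 ± 0.260 and 4.51 ± 0.214 (SD, n = 3). All RBM47-OE libraries were below all NC libraries, though the highest of them lay only just under the lowest NC library. The log2 fold change was -0.23 (SE 0.089). It was -0.01 (SE 0.073) with the GC offset, and the median of the 1624 genes in its GC bin, which also holds ARRDC1, was -0.23.

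MLXIP (ENSG00000175727, chromosome 12, plus strand, 122078756 to 122147344) was measured at 5.22, 5.38 and 5.41 FPKM without the RBM47 plasmid (NC) and at 4.58, 4.91 and 4.60 with it. All RBM47-OE libraries were below all NC libraries, by 12.0% between the means of 5.34 ± 0.102 and 4.70 ± 0.185 (SD, n = 3). The log2 fold change was -0.26 (SE 0.069), against a median of -0.20 over the 1623 genes of its GC bin, and -0.09 (SE 0.055) with the GC offset. On average ARRDC4 was higher in RBM47-OE and MLXIP, the gene of its activator MondoA, slightly lower at the RNA level. Among the RBM47-OE libraries, replicate 2 had the most of both, at 8.86 FPKM of ARRDC4 and 4.91 of MLXIP. A relation between them was not tested, and RNA levels do not report where MondoA is in the cell.

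In the order of levels, read in FPKM because it corrects for length, ARRDC3 stood first in both groups. In NC it was followed by ARRDC1, MLXIP, ARRDC2 and ARRDC4, and no neighbours in this order overlapped over the 3 libraries. In RBM47-OE the order was ARRDC3, ARRDC1, ARRDC4, MLXIP and ARRDC2, and every pair of neighbours below ARRDC3 overlapped. ARRDC4 thus moved from the last to the third place by its mean, while its range over libraries covered that of ARRDC2 and MLXIP. Counts per kilobase of exon gave the same order in both groups.

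Other genes share bases with some members. ARRDC3 shares 145 exonic bases with ARRDC3-AS1 on the other strand, which had 10 to 26 counts, and ARRDC1 shares 35 with ARRDC1-AS1, which had 151 to 209. ARRDC1 also shares 183 bases with the lncRNA ENSG00000283411 on the same strand (11 to 16 counts), and ARRDC2 shares 442 bases with ENSG00000279172 on the other strand (1 to 11 counts). Whether strand was used in counting is not given in the sources used here, so reads in these stretches are uncertain. ARRDC4 and MLXIP shared no exonic bases with another annotated gene.

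The genes whose profile over the 6 libraries was most like that of ARRDC3 were ATAD1, TMEM135, COL4A3, VCPKMT and COG5. Likeness was the root mean square difference of log2 CPM centred on the NC mean, which was 0.038 for ATAD1 and 0.045 for COG5 among 14005 genes compared. ATAD1 extracts misplaced proteins from mitochondrial membranes, COL4A3 is a basement membrane collagen chain and COG5 a subunit of a Golgi tethering complex. Their log2 fold changes were 0.56 to 0.64, and 0.24 to 0.49 with the GC offset. For ARRDC4, a search added after its values were seen gave RNF157, IFRD1, C14orf28, SLC44A5 and ZNF814, with larger differences of 0.126 to 0.145. In log2 CPM above the NC mean, RNF157 was at 0.39, 0.94 and 0.13 for replicates 1, 2 and 3 of RBM47-OE, where ARRDC4 was at 0.37, 1.11 and 0.05. The likeness is what the search selected for, so it is not a separate result. Some of these genes were at low levels: RNF157 at 0.09 to 0.21 FPKM, ZNF814 at 0.09 to 0.20, SLC44A5 at 0.22 to 0.49 and COL4A3 at 0.27 to 0.46.

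The wider pathway was read from 9 lists of genes, of which 96 of 105 were tested. Of these, edgeR's quasi-likelihood test called 27 higher and 17 lower after adjustment, or 28.1% and 17.7%, beside 19.1% and 16.9% of all genes, and the median log2 fold change was 0.03. With the GC offset 12 were higher and 8 lower, beside 5.97% and 8.57% of all genes. The adjusted p-values of this and the next paragraphs are from that test with Benjamini-Hochberg adjustment over all genes, and the lists were chosen with earlier results of these data known.

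Among the Mondo and MAX network partners, 2 of 10 were higher, 3 lower and 5 not called. MLX, the obligate partner of MondoA, had a log2 fold change of -0.08 (adjusted p = 0.41) and MLXIPL, which encodes ChREBP, 0.03 (adjusted p = 0.87). MXI1, a MAX-binding repressor, was higher, rising from 10.67, 10.51 and 11.87 FPKM (NC) to 13.94, 15.19 and 15.60 (RBM47-OE), with a log2 fold change of 0.36 (adjusted p = 0.00054) and 0.35 with the GC offset. MXD1 was also higher (0.33, adjusted p = 0.015), and MXD3 (-0.39, adjusted p = 0.0033) and MAX (-0.25, adjusted p = 0.012) were lower. With the GC offset MAX was still called (-0.21), but MXD1 (0.14, adjusted p = 0.36) and MXD3 (-0.20, adjusted p = 0.11) were not. Without NC replicate 2, 1 gene of the list was higher and 1 lower, and 1 was higher without NC replicate 3 or RBM47-OE replicate 2.

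Of 11 tested targets ascribed to MondoA or ChREBP, TXNIP and ARRDC4 aside, 2 were higher, 1 lower and 8 not called, with a median log2 fold change of -0.0015. HK2, a hexokinase, was higher (0.25, adjusted p = 0.010) and more so with the GC offset (0.34). ME1, malic enzyme, was higher (0.28, adjusted p = 0.0040) but at -0.02 with the GC offset. PFKFB3, which makes an activator of glycolysis, was lower (-0.27, adjusted p = 0.0055), but not with the GC offset (-0.10, adjusted p = 0.24). The count of higher genes was 1 without NC replicate 1 or 2, and that of lower genes 2 when NC replicate 1 was left out and 3 when RBM47-OE replicate 1 was.

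In glucose uptake and phosphorylation, 2 of 11 tested genes were higher, 1 lower and 8 not called. SLC2A1, the main glucose transporter gene, had a log2 fold change of -0.07 (adjusted p = 0.56). The transporter gene SLC2A12 was higher, from 1.19, 1.18 and 1.13 FPKM (NC) to 1.98, 1.94 and 1.82 (RBM47-OE), with a log2 fold change of 0.64 (adjusted p = 0.00022) and 0.36 with the GC offset. The count of higher genes was 1 without NC replicate 1 or 2, and that of lower genes 3 without RBM47-OE replicate 1.

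The list of the thioredoxin system, which TXNIP binds and inhibits, and of other TXNIP binding partners had 3 of 13 tested genes higher, 6 lower and 4 not called. TXN itself had a log2 fold change of -0.03 (adjusted p = 0.80), yet -0.37 (adjusted p = 0.0014) with the GC offset. The GC content of its exons is 36.7%. The mitochondrial reductase TXNRD2 was lower, from 2.47, 2.57 and 2.43 FPKM (NC) to 1.96, 1.64 and 1.51 (RBM47-OE), with a log2 fold change of -0.61 (adjusted p = 0.00014) and -0.45 with the GC offset. The cytosolic reductase TXNRD1 was higher (0.31, adjusted p = 0.0027), and the peroxiredoxins PRDX2 (-0.42, adjusted p = 0.00031) and PRDX4 (-0.30, adjusted p = 0.0024) were lower. These 3 kept their calls with the GC offset, at 0.25, -0.25 and -0.31. The count of higher genes was 1 without NC replicate 1 or 2.

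Of 11 NEDD4-family ubiquitin ligases and adaptors, the partners through which alpha-arrestins act, 3 were higher, none lower and 8 not called. WWP1, a ligase that binds ARRDC proteins, was higher, from 4.99, 5.15 and 5.47 FPKM in the NC libraries to 6.17, 8.30 and 7.68 with RBM47 (log2 fold change 0.43, adjusted p = 0.00060). NDFIP2 (0.37, adjusted p = 0.00083) and SMURF2 (0.27, adjusted p = 0.015) were higher too. The exons of these 3 genes have a GC content of 34.7% to 40.9%, and with the GC offset they were at 0.13, -0.01 and 0.01. In that fit none of the list was called higher and 1 gene was called lower. ITCH (0.11, adjusted p = 0.21), NEDD4 (0.22, adjusted p = 0.12) and WWP2 (-0.18, adjusted p = 0.062) were not called.

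Among 15 genes of the ESCRT machinery, part of which serves ARRDC1 in vesicle budding, 5 were higher and 5 lower. With the GC offset none was higher and 1 lower. Without NC replicate 2 the counts were 3 and 3, and leaving out NC replicate 3, RBM47-OE replicate 2 or RBM47-OE replicate 3 gave 3 lower. TSG101, the ARRDC1 partner, had a log2 fold change of 0.10 (adjusted p = 0.31). STAM2 (0.53, adjusted p = 0.00037), VPS4B (0.39, adjusted p = 0.0012) and PDCD6IP (0.33, adjusted p = 0.00089), which encodes ALIX, were higher, and were at 0.15, 0.10 and 0.02 with the GC offset. VPS37B, a subunit of the TSG101 complex, was lower, from 15.82, 16.16 and 15.89 FPKM in the NC libraries to 13.26, 14.03 and 12.28 with RBM47 (log2 fold change -0.35, adjusted p = 0.00062, and -0.19 with the GC offset).

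The other arrestin-fold genes had 1 of 5 tested genes higher, the retromer subunit gene VPS26A (0.25, adjusted p = 0.021), which was at -0.0045 with the GC offset and lost its call without any 1 library other than RBM47-OE replicate 1. The beta-arrestin genes ARRB1 (-0.08, adjusted p = 0.49) and ARRB2 (-0.18, adjusted p = 0.074) were not called. Of 8 tested genes for proteins handled by alpha-arrestins, 3 were higher, YAP1 (0.24, adjusted p = 0.012), F2R (0.22, adjusted p = 0.037) and the iron transporter gene SLC11A2 (0.23, adjusted p = 0.039), and NOTCH1 was lower (-0.29, adjusted p = 0.010). None of these 4 was called with the GC offset, where YAP1 was at 0.07, F2R at 0.10, SLC11A2 at 0.10 and NOTCH1 at -0.08. The count of 3 higher genes fell to 1 with the replicate block, to 1 without NC replicate 1 or RBM47-OE replicate 2, and to 0 without NC replicate 2, NC replicate 3 or RBM47-OE replicate 3. NOTCH1 lost its call without NC replicate 3 or RBM47-OE replicate 3. ITGB4, a cargo tied to ARRDC3, was not called, at a log2 fold change of -0.11 (adjusted p = 0.29).

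Of 13 genes known to regulate TXNIP or ARRDC transcription, 7 were higher, none lower and 6 not called, with a median log2 fold change of 0.20. The 7 are 53.8% of the list, beside 19.1% of all tested genes. With the GC offset 4 were higher, not all of them among the 7, beside 5.97% of all tested genes, and the median was 0.08. The count of 7 fell to 3 without NC replicate 2, NC replicate 3 or RBM47-OE replicate 2, and to 4 without RBM47-OE replicate 3. NR3C1, the glucocorticoid receptor gene, was higher, from 1.45, 1.49 and 1.26 FPKM (NC) to 1.98, 2.14 and 2.11 (RBM47-OE), with a log2 fold change of 0.50 (adjusted p = 0.00052) and 0.31 with the GC offset. PRKAA1 (0.37, adjusted p = 0.0032) and PRKAB2 (0.33, adjusted p = 0.011), subunits of the kinase AMPK, and NFYB (0.34, adjusted p = 0.012), a subunit of the CCAAT-binding factor, were higher as well. With the GC offset PRKAA1, PRKAB2 and NFYB were at 0.0042, 0.08 and 0.10, and none of them was called.

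**Figure D4:**
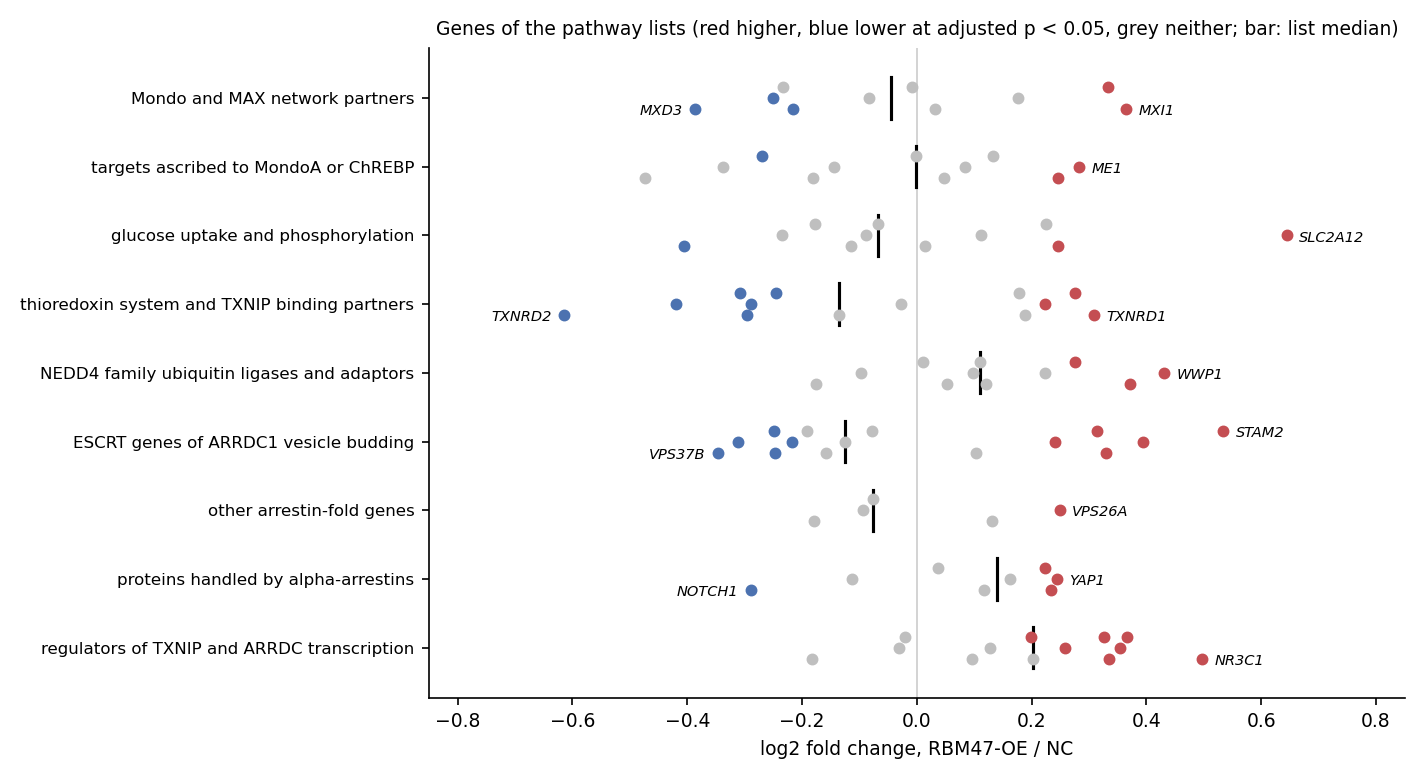
Log2 fold change of RBM47-OE over NC (x axis) for the tested genes of each pathway list (y axis), red where higher and blue where lower by edgeR's quasi-likelihood test (adjusted p below 0.05), grey otherwise, with the list median as a bar. The largest differences are SLC2A12 at 0.64 and TXNRD2 at -0.61, beside -0.26 to 0.60 over the members.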

How the data were processed

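RNA of 3 NC and 3 RBM47-OE libraries of HCT116 cells was used. Reads were trimmed by the authors (FASTX-Toolkit), placed on GRCh38 by HISAT2 and, where unique, counted per gene. The authors deposited these counts as raw values and a second table of FPKM, in which gene length and depth are divided out. The counting tool, its use of strand and the annotation release are not given in the sources used here. The labels name a NEBNext directional kit and the methods a KC stranded kit.

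Differential expression was computed from the counts with edgeR 4.0.16 in R 4.3.3, using its quasi-likelihood test with TMM factors and the group as sole term. Genes were kept by filterByExpr, at a minimum count of 10 and a total of 15, which left 16260 genes, and p-values were adjusted by Benjamini-Hochberg. Library totals of 26792409 to 35477983 counts set the precision. CPM is counts scaled by library size and TMM factor, with a prior count of 2 for log2 CPM. Exonic GC content came from GENCODE 44 on GRCh38 for 16233 tested genes, and the GC offset was a loess curve (span 0.3) of each library's difference from the mean library against it. The offset removes every difference that follows GC content, whatever its origin.

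The members and lists were chosen with earlier results of these data known, and no p-value is given for a member. Named were the members, RBM47, in each list up to 4 genes with the smallest p-values among those called, 16 pathway genes whatever their result (of which ARRDC5 was not analysed here), and the 5 genes most like ARRDC3. Some genes that this rule names are not reported here. The same for TXNIP could not be run, and the search for ARRDC4 was added after its values were seen. Alternatives were DESeq2 1.42.0, other scaling and filters, the GC offset, the replicate block, limma 3.58.1 on log2 FPKM (pseudocount 1 or 0.1, with a floor of 0.1 on the mean or, for 1, none), and each library left out. Of these fits, the edgeR test (plain and with the offset), DESeq2 and limma were run on simulated counts with known changes. Recovery of the changes was required of plain edgeR and DESeq2 only where no GC trend was simulated. The offset fit had to recover them with and without a trend, and nothing was required of limma.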

Additional observations from a re-analysis of the deposited data

How the results depend on the processing

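In sign alone, ARRDC3 and ARRDC4 were higher and ARRDC2 and MLXIP lower in all 18 alternatives, but the call after adjustment was kept in 18 for ARRDC3, 13 for MLXIP, 11 for ARRDC4 and 3 for ARRDC2. DESeq2 gave ARRDC4 0.58 with an SE of 0.33. ARRDC1 turned to 0.058 with the GC offset and to 0.056 with the replicate block added. With the GC offset the log2 fold change moved to 0.29 in ARRDC3, -0.014 in ARRDC2 and -0.0893 in MLXIP, and with the block added to 0.29, -0.012 and -0.0894. Library totals gave 0.66 in ARRDC3 and -0.19 in MLXIP. limma on log2(FPKM + 1), with and without its filter, gave 0.63 in ARRDC3, -0.13 in ARRDC2 and -0.15 in MLXIP, and on log2(FPKM + 0.1) it gave 0.67, -0.15 and -0.18. With each library left out the ranges were 0.58 to 0.62 in ARRDC3, 0.21 to 0.78 in ARRDC4, -0.21 to -0.08 in ARRDC1, -0.26 to -0.19 in ARRDC2 and -0.27 to -0.24 in MLXIP. Counts per kilobase of exon left the order of levels as it was.

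At an adjusted p-value under 0.05 the GC offset called 971 genes higher and 1393 lower, 1043 and 1455 with the replicate block, in place of 3100 and 2740. limma on log2(FPKM + 1) and on log2(FPKM + 0.1) called 1586 and 1599 lower, and without its filter 1410 higher and 908 lower. At the thresholds of the study, library totals called 479 higher and 79 lower, the GC offset 77 and 92 (84 higher with the block), limma on log2(FPKM + 1) 43 and 28, and without its filter 42 and 27. Of the pathway genes, 12 were higher and 8 lower with the GC offset, with and without the block, in place of 27 and 17. limma on log2(FPKM + 1) called 8 lower, on log2(FPKM + 0.1) 9, and without its filter 13 higher and 6 lower. With each library left out, 2090 to 3864 genes were higher and 1675 (without NC replicate 2) to 3508 lower, and 143 (RBM47-OE replicate 2 left out) to 639 (RBM47-OE replicate 1 left out) were higher and 121 to 213 lower at the thresholds of the study. Of the pathway genes, 12 to 31 were then higher, the counts being 12, 15 and 17 when NC replicate 2, NC replicate 3 or RBM47-OE replicate 3 was the library left out. Between 11 (NC replicate 2 left out) and 29 (RBM47-OE replicate 1 left out) were lower. ME1 (-0.0179, and -0.0180 with the block), NDFIP2 (-0.0129 and -0.0125) and VPS26A (-0.0045 and -0.0053) changed sign with the GC offset, and 9 of the 29 named pathway genes that were called kept their call in all alternatives, among them MXI1, SLC2A12, TXNRD2, PRDX2, PRDX4, TXNRD1, VPS37B and NR3C1.

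Same-numbered libraries had correlations of -0.06, -0.01 and -0.02 in their deviations from the group means. No shared effect of the replicate number was thus seen over all genes, which cannot show whether the libraries were prepared in pairs. The replicate block alone left ARRDC3 at 0.60 and ARRDC4 at 0.52. With 3 libraries a group, the ARRDC4 mean depends on single libraries, and the cause of its spread was not tested.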
